A study of Bubalus bubalis with 9 samples.

Results

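Sterol synthesis enzymes are described here across 3 states of the ovarian follicle in Chinese buffalo (Bubalus bubalis). The 8 genes are ACAT2, HMGCS1, MVD, LOC102414371, FDPS, FDFT1, SQLE and LSS, taken by gene identifier from 20801 genes in the authors' deposited tables. LOC102414371 is named IDI1 in the RefSeq annotation of the assembly NDDB_SH_1 and is called IDI1 here. The sequenced RNA came from granulosa cells, somatic cells lining the follicle that make its estradiol. The 9 samples were 3 from healthy, 3 from early atretic and 3 from late atretic follicles, atresia being the degeneration that ends most follicles before ovulation. The labels give no treatment or genotype, no age of the animals and no criterion by which follicles were staged. Nothing in them ties the samples to separate animals. The p-values of each pair of stages then reflect the spread among the sequenced samples alone, which may be technical.

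The mevalonate pathway builds isoprenoid units from acetyl-CoA, and its sterol branch joins and cyclizes them to lanosterol, which later enzymes turn into cholesterol. Granulosa cells use cholesterol for membranes and as the precursor of steroid hormones, and obtain it both from lipoproteins and by their own synthesis. In mammals the genes of the pathway are under shared control by the transcription factor SREBP-2, which the protein SCAP escorts to the Golgi when sterols are scarce and INSIG proteins retain when they are plentiful.

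Each of the authors' deposited tables compares a pair of stages and gives 1 mean of normalized read counts per gene and stage, with a log2 fold change and the p-values of their test. Values per sample were not used here. The total depth of each library is unknown, but the lowest values in the tables fell into steps that put 1 read in a library at between 0.78 and 1.14 normalized counts. At that depth the counting error of the log2 changes of the 8 enzymes was between 0.020 and 0.048. An error written as ± is the standard error that the deposited change and p-value imply if the test was normal and two-sided, and intervals are the 95% intervals this error gives. It lay between 0.24 and 0.45 for the 8 enzymes over the 3 comparisons, well above counting error, so the spread between samples set the precision. A gene was called where the authors' deposited adjusted p was below 0.05. The material was bulk RNA, in which fewer cells of a type and less RNA per cell cannot be told apart.

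In early atretic follicles FDFT1, SQLE and LSS, which turn farnesyl units into lanosterol, fell, while the other 5 enzymes did not pass the threshold. The log2 changes of early atretic against healthy follicles by the authors' deposited table ran from -1.24 for SQLE to -0.23 for FDPS, and all 8 were negative. Of the 8, 3 were called lower and 0 higher, where 4.35% of 17386 tested genes were called lower and 8.59% higher in this comparison. At an unadjusted p below 0.05, 6 of the 8 were lower and 0 higher, with 9.82% of tested genes lower and 13.7% higher by that rule. At an adjusted p below 0.01, 0 of the 8 were lower, with 2.0% of tested genes lower, and at an adjusted p below 0.05 with a log2 change of at least 1 in size, 1 was, with 1.81% of tested genes lower. The median log2 change of the 8 enzymes was -0.85, against 0.02 over all tested genes. Their means by the authors' deposited table summed to 10724 normalized counts in early atretic and 18512 in healthy follicles, a level of 57.9%.

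SQLE encodes squalene epoxidase, which oxidizes squalene and is a control point of the sterol branch. Its mean was 557 normalized counts in early atretic and 1316 in healthy follicles by the authors' deposited table, and it fell by 1.24 ± 0.37 in log2 units (adjusted p = 0.011, interval from -1.98 to -0.51). FDFT1 encodes squalene synthase, which joins farnesyl units in the first step committed to sterols. It averaged 2071 normalized counts in early atretic and 3757 in healthy follicles, and fell by 0.86 ± 0.31 in log2 units by the authors' deposited table (adjusted p = 0.041). LSS, lanosterol synthase, which closes the sterol ring system, averaged 1473 normalized counts in early atretic and 2626 in healthy follicles, and fell by 0.83 ± 0.27 in log2 units by the authors' deposited table (adjusted p = 0.021). The level of SQLE in early atretic follicles was therefore 42.3% of the healthy level, that of FDFT1 55.1% and that of LSS 56.1%.

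Upstream, HMGCS1 and IDI1 had fold changes between those of SQLE and LSS and did not pass. HMGCS1 encodes the cytosolic HMG-CoA synthase, an enzyme at the entry to the mevalonate pathway, and averaged 2540 normalized counts in early atretic and 5081 in healthy follicles by the authors' deposited table. Its log2 change was -1.0 ± 0.43 by the authors' deposited table (adjusted p = 0.11, interval from -1.84 to -0.16). IDI1, the isomerase that makes the allylic isoprenoid unit, averaged 988 normalized counts in early atretic and 1856 in healthy follicles, with a log2 change of -0.91 ± 0.34 that lay just outside the threshold by the authors' deposited table (adjusted p = 0.059).

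Smaller differences were measured at the other steps. MVD, the decarboxylase that makes the first isoprenoid unit, averaged 717 normalized counts in early atretic and 1017 in healthy follicles, with a log2 change of -0.50 ± 0.25 by the authors' deposited table (adjusted p = 0.21). ACAT2, the cytosolic thiolase that opens the pathway, averaged 1520 normalized counts in early atretic and 1852 in healthy follicles, with a log2 change of -0.29 ± 0.27 by the authors' deposited table (adjusted p = 0.63). FDPS, which makes farnesyl diphosphate for sterols and for other isoprenoids, averaged 858 normalized counts in early atretic and 1007 in healthy follicles, with a log2 change of -0.23 ± 0.26 by the authors' deposited table (adjusted p = 0.71). The intervals of ACAT2, from -0.82 to 0.25, and FDPS, from -0.75 to 0.28, included both no change and falls close in size to that of LSS. FDPS has processed pseudogenes in human. Whether buffalo copies shared reads with it was not examined, so its value is uncertain.

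**Figure D1:**
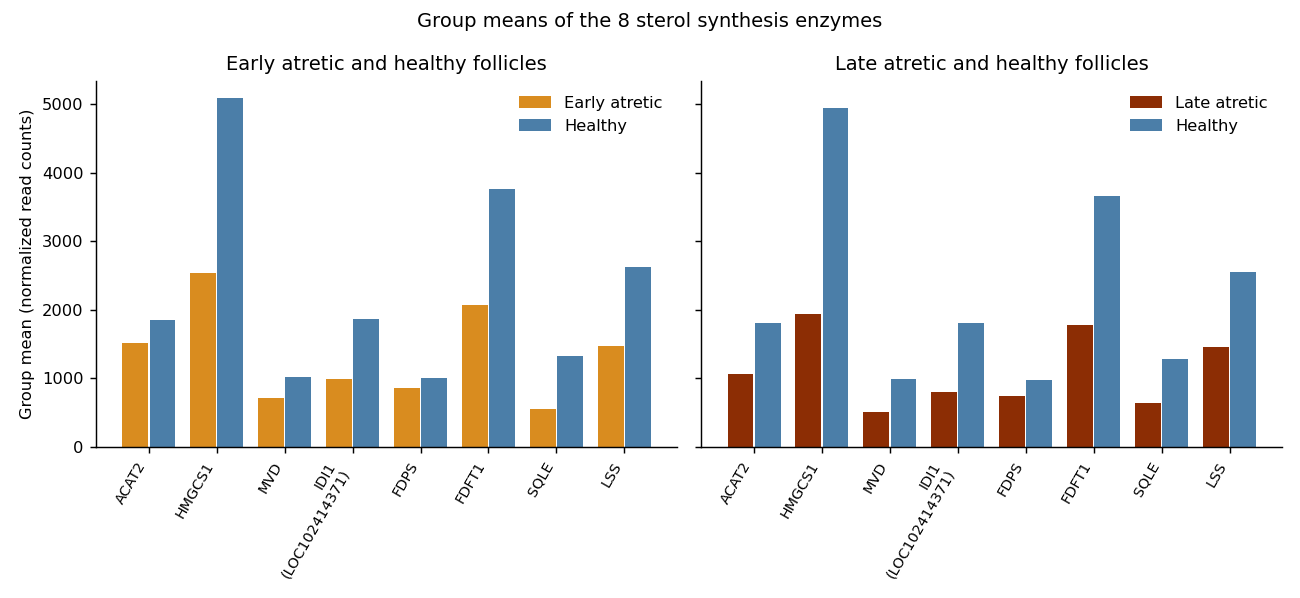
Group means of the 8 enzymes in normalized read counts, early atretic beside healthy follicles on the left and late atretic beside healthy follicles on the right, each panel from its own table. The files hold means alone, so bars carry no error; each atretic bar is below its healthy bar, with SQLE at 557 in early atretic and 1316 in healthy follicles and FDPS at 858 in early atretic and 1007 in healthy follicles.

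In late atretic follicles ACAT2 and HMGCS1 at the entry to the pathway, IDI1 further on and FDFT1 at the start of the sterol branch fell. All 8 log2 changes were again negative by the authors' deposited table, from -1.35 for HMGCS1 to -0.40 for FDPS. Of the 8, 4 were called lower and 0 higher, where 0.397% of 17366 tested genes were called lower and 3.98% higher. These 4 were among 69 genes called lower in all, and 692 genes were called higher. At an unadjusted p below 0.05, 7 of the 8 were lower and 0 higher, with 2.96% of tested genes lower and 9.2% higher by that rule. At an adjusted p below 0.01, 1 was lower, with 0.121% of tested genes lower, and at an adjusted p below 0.05 with a log2 change of at least 1 in size, 3 were, with 0.271% of tested genes lower. The median log2 change was -0.99, against 0.03 over all tested genes, and the summed means came to 8913 normalized counts in late atretic and 18007 in healthy follicles by the authors' deposited table, a level of 49.5%. Both atretic stages were set against the same healthy samples, so the early and late values are not independent of each other.

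HMGCS1 had the largest fold change of the 8 in late atretic follicles. It averaged 1934 normalized counts in late atretic and 4945 in healthy follicles, and fell by 1.35 ± 0.37 in log2 units by the authors' deposited table (adjusted p = 0.011), to 39.1% of the healthy level. FDFT1 averaged 1776 normalized counts in late atretic and 3654 in healthy follicles, and fell by 1.04 ± 0.26 in log2 units, with the smallest adjusted p of the 8 by the authors' deposited table (0.0037). IDI1 averaged 801 normalized counts in late atretic and 1805 in healthy follicles, and fell by 1.17 ± 0.38 in log2 units by the authors' deposited table (adjusted p = 0.047). ACAT2 averaged 1062 normalized counts in late atretic and 1801 in healthy follicles, and fell by 0.76 ± 0.24 in log2 units by the authors' deposited table (adjusted p = 0.034). FDFT1 was the 1 enzyme of these 4 with an adjusted p below 0.01, and IDI1 lay closest to the threshold.

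SQLE, LSS and MVD had fold changes of like size that did not pass. SQLE averaged 635 normalized counts in late atretic and 1280 in healthy follicles, with a log2 change of -1.01 ± 0.39 by the authors' deposited table (adjusted p = 0.15, interval from -1.78 to -0.24). For LSS the means were 1457 normalized counts in late atretic and 2555 in healthy follicles, and the log2 change was -0.81 ± 0.27 by the authors' deposited table (adjusted p = 0.063). MVD averaged 505 normalized counts in late atretic and 989 in healthy follicles, with a log2 change of -0.97 ± 0.34 by the authors' deposited table (adjusted p = 0.088). FDPS averaged 744 normalized counts in late atretic and 979 in healthy follicles, with a log2 change of -0.40 ± 0.38 and an interval from -1.13 to 0.34 by the authors' deposited table (adjusted p = 0.87). FDPS was the 1 enzyme of the 8 whose interval against healthy follicles included 0 at the late stage.

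The position of the 8 enzymes among genes with a mean of at least 500 normalized counts was also described. Of 5664 tested genes whose larger group mean was at least 500 normalized counts, 2.17% had a lower log2 change than SQLE in early atretic against healthy follicles, 5.84% than FDFT1 and 30.3% than FDPS. In late atretic against healthy follicles, of 5494 such genes, 0.53% had a lower log2 change than HMGCS1, 1.04% than IDI1, 1.46% than FDFT1 and 14.0% than FDPS. The median implied error of these genes was 0.20 at the early and 0.27 at the late stage over healthy follicles, and that of the 8 enzymes was 0.29 and 0.36.

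**Figure D2:**
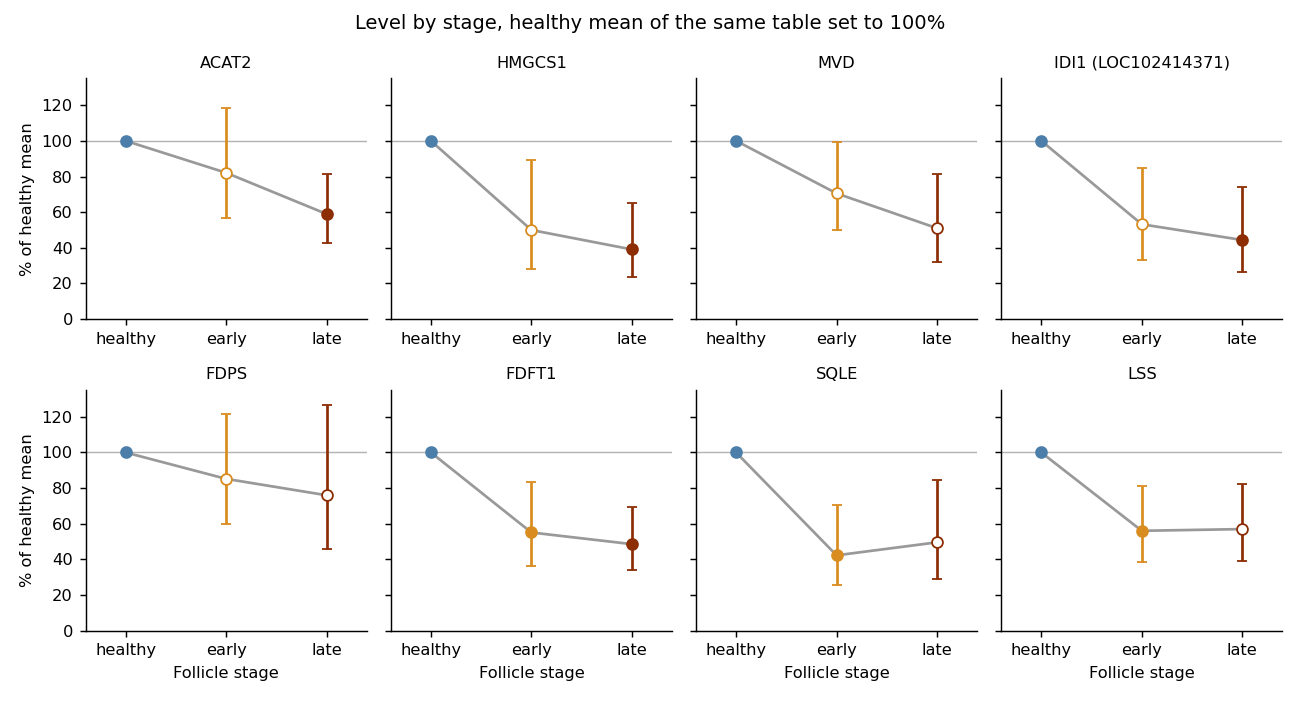
Level of each enzyme by follicle stage, as a percentage of the healthy mean in the same table, with implied 95% intervals; filled points of the atretic stages passed an adjusted p of 0.05 against healthy follicles. FDFT1 is filled at both stages, at 55.1% early and 48.6% late, and the intervals of FDPS reach above 100% at both.

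The direct comparison of late with early atretic follicles tests whether both atretic stages differed from each other, and 0 of the 8 enzymes passed by the authors' deposited table, in either direction. At an unadjusted p below 0.05 the count was likewise 0 of 8, where 3.0% of 17552 tested genes were lower and 2.36% higher. By adjusted p, 0.0912% of tested genes were called lower and 0.0171% higher, so few genes of any kind passed. The log2 changes of the 8 ran from -0.46 ± 0.28 for ACAT2 to 0.24 ± 0.39 for SQLE by the authors' deposited table, with a median of -0.21 against 0.06 over all tested genes. ACAT2 averaged 1115 normalized counts in late and 1535 in early atretic follicles (interval of the log2 change from -1.02 to 0.10), and MVD 530 in late and 724 in early atretic follicles (interval from -1.10 to 0.20) by the authors' deposited table. HMGCS1 averaged 2027 normalized counts in late and 2565 in early atretic follicles, with a log2 change of -0.34 ± 0.45, and IDI1 840 in late and 998 in early atretic follicles, with a log2 change of -0.25 ± 0.43, by the authors' deposited table. FDFT1 had a log2 change of -0.17 ± 0.34 and FDPS of -0.15 ± 0.41 by the authors' deposited table, so these 4 values were smaller than their errors. SQLE averaged 666 normalized counts in late and 563 in early atretic follicles by the authors' deposited table, with an interval from -0.53 to 1.01. LSS averaged 1529 normalized counts in late and 1489 in early atretic follicles, a log2 change of 0.04 ± 0.28 by the authors' deposited table with an interval from -0.52 to 0.59, whose sign turned under another scaling. These intervals leave room for differences in either direction, so neither the calls of SQLE and LSS at the early stage nor those of ACAT2, HMGCS1 and IDI1 at the late stage were shown to belong to that stage. Of 8 granulosa cell markers, 0 passed in this comparison, with 1 higher and 0 lower at an unadjusted p below 0.05, and their means summed to 303724 normalized counts in late and 159768 in early atretic follicles by the authors' deposited table. Most of both sums came from INHA, at 174243 normalized counts in late and 79360 in early atretic follicles, and INHBA, at 98585 and 64786. Both genes are named after their values were seen.

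**Figure D3:**
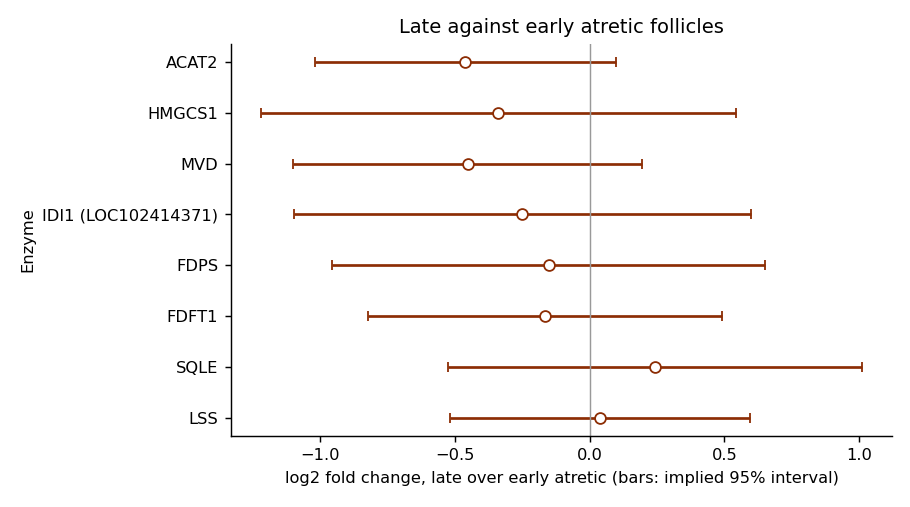
Log2 fold change of late over early atretic follicles for each of the 8 enzymes, with implied 95% intervals. All 8 intervals cross 0; the points run from -0.46 for ACAT2 to 0.24 for SQLE.

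The other genes of the pathway were mostly on the lower side too. Of 12 further mevalonate and sterol genes described here, 11 were found; no row was matched to CYP51A1, which was not analysed here. In early atretic follicles 3 of the 11 were called lower and 0 higher, and 10 of 11 log2 changes were negative by the authors' deposited table, with a median of -0.38. In late atretic follicles 0 of 11 were called by the authors' deposited table, 5 had a negative and 0 a positive change with an unadjusted p below 0.05, all 11 fold changes were negative, and the median was -0.49. Over the 19 enzymes and associated proteins together, 6 were called lower at the early and 4 at the late stage over healthy follicles, with 0 called higher in either. All 4 late calls were those of the 8 enzymes already given. Of all tested genes, 4.35% were called lower at the early and 0.397% at the late stage. At an unadjusted p below 0.05, 2.96% of tested genes were lower at the late stage.

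Neither of the mevalonate kinases, which phosphorylate mevalonate in turn, passed. MVK had log2 changes of -0.30 ± 0.31 at the early and -0.70 ± 0.30 at the late stage over healthy follicles, and PMVK of -0.16 ± 0.22 and -0.13 ± 0.31, by the authors' deposited tables. Differences between genes were not tested.

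After lanosterol, DHCR7, MSMO1 and ERG28 were called lower in early atretic follicles and 0 genes were called in late atretic follicles. DHCR7, which makes cholesterol in the last step of one of its routes, averaged 1795 normalized counts in early atretic and 3931 in healthy follicles, and fell by 1.13 ± 0.34 in log2 units by the authors' deposited table (adjusted p = 0.011). MSMO1, the sterol methyl oxidase, fell by 1.06 ± 0.33 (adjusted p = 0.015), and ERG28, a scaffold protein of sterol demethylation as known from yeast, by 0.83 ± 0.26 (adjusted p = 0.016), in early atretic follicles by the authors' deposited table. In late atretic follicles the log2 changes were -1.11 ± 0.51 for DHCR7, -0.49 ± 0.34 for MSMO1 and -0.91 ± 0.35 for ERG28 by the authors' deposited table, with adjusted p of 0.31, 0.70 and 0.14, and the direct comparison of late with early atretic follicles called 0 of the 11 genes, with 0 at an unadjusted p below 0.05. SC5D and TM7SF2 are named after their values were seen. SC5D, the lathosterol oxidase, came close to the threshold, with a log2 change of -0.99 ± 0.37 in early atretic follicles by the authors' deposited table (adjusted p = 0.051). TM7SF2, a sterol reductase, had the 1 positive value of the list, 0.24 ± 0.28 in early atretic against healthy follicles by the authors' deposited table.

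**Figure D4:**
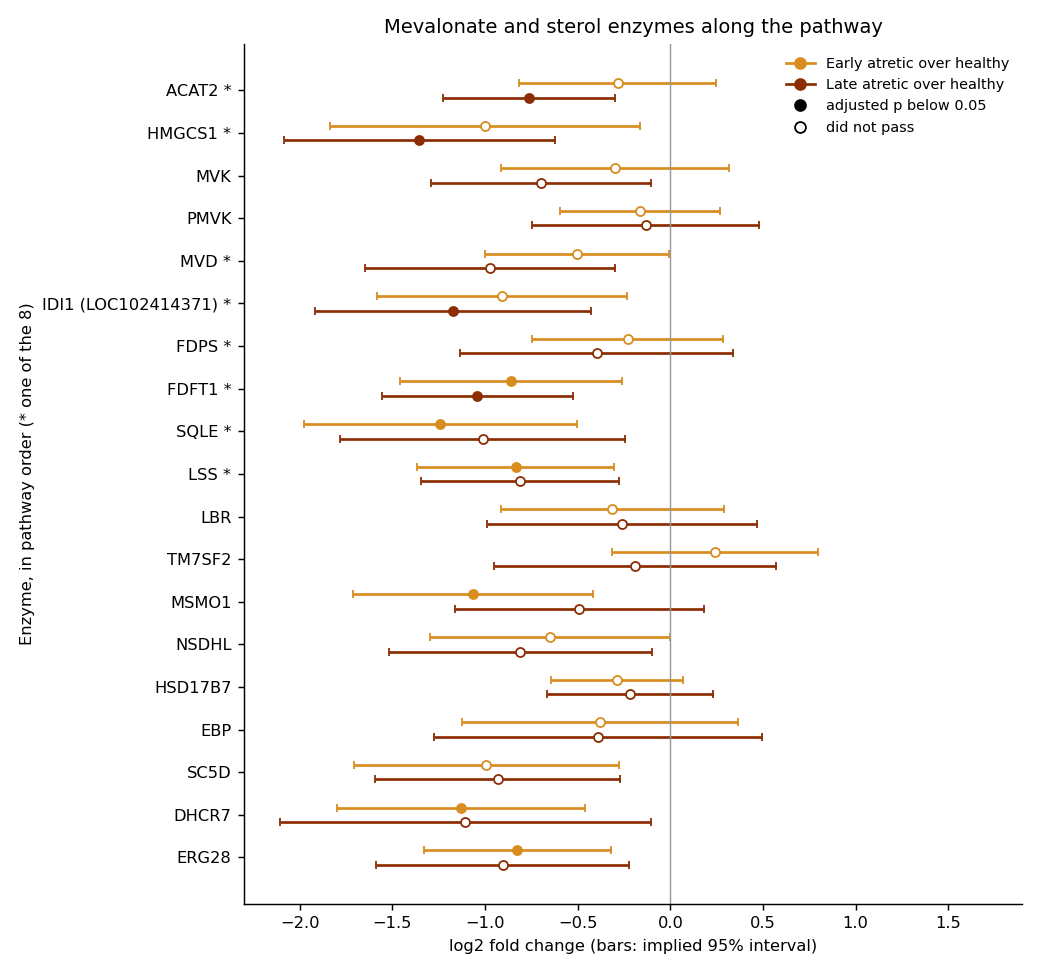
Log2 fold changes of early atretic (upper point of each pair) and late atretic (lower point) over healthy follicles for 19 genes in the order of the pathway, the scaffold gene ERG28 last, with implied 95% intervals; filled points passed an adjusted p of 0.05 and asterisks mark the 8 enzymes. Points lie left of 0 except TM7SF2 at 0.24 in early atretic follicles, and PMVK lies near 0 in both.

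Among genes that regulate the pathway or move sterols into and within the cell, NPC2 rose and the others did not pass. All 17 such genes described here were found and tested. The list had 0 genes called lower and 1 higher in each of the early and late comparisons with healthy follicles, with medians of -0.21 and -0.11. Among all tested genes, 4.35% were called lower and 8.59% higher in early, and 0.397% and 3.98% in late atretic follicles. At an unadjusted p below 0.05, 5 were lower in early and 2 in late atretic follicles, and 1 was higher in each. By that rule 9.82% of tested genes were lower and 13.7% higher in early, and 2.96% and 9.2% in late atretic follicles. SREBF2, which encodes SREBP-2, averaged 4687 normalized counts in early atretic and 7400 in healthy follicles, a log2 change of -0.66 ± 0.29 by the authors' deposited table (adjusted p = 0.13). At the late stage SREBF2 had a log2 change of -0.74 ± 0.38 over healthy follicles by the authors' deposited table (adjusted p = 0.41). INSIG1, itself a known target of SREBP-2 in mammals, had log2 changes of -0.85 ± 0.38 at the early and -0.96 ± 0.42 at the late stage over healthy follicles by the authors' deposited table, with adjusted p of 0.14 and 0.26. SREBF1, which encodes the related factor of fatty acid synthesis, had log2 changes of -0.19 ± 0.31 at the early and -0.11 ± 0.52 at the late stage over healthy follicles by the authors' deposited table. SCAP averaged 9812 normalized counts in early atretic and 9337 in healthy follicles, a log2 change of 0.07 ± 0.18, and 6444 in late atretic and 9081 in healthy follicles, a log2 change of -0.49 ± 0.25, by the authors' deposited table, neither of which passed. NPC2, which carries cholesterol out of lysosomes, was the gene called higher, with a rise of 1.42 ± 0.36 in early and 1.94 ± 0.48 in late atretic follicles in log2 units by the authors' deposited table (adjusted p = 0.0015 and 0.0027).

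Among enzymes of fatty acid synthesis and desaturation, 0 of 11 tested genes passed in either comparison with healthy follicles, with 2 lower and 2 higher in early and 2 lower and 0 higher in late atretic follicles at an unadjusted p below 0.05 by the authors' deposited tables. Their median log2 changes were -0.15 in early and -0.34 in late atretic follicles. Among all tested genes, 4.35% were called lower and 8.59% higher in early, and 0.397% and 3.98% in late atretic follicles. At an unadjusted p below 0.05 these shares were 9.82% and 13.7% in early, and 2.96% and 9.2% in late atretic follicles. THRSP was listed at 0 in each stage and was not tested. Of 15 enzymes that lead isoprenoids to dolichol, ubiquinone and protein prenylation, 1 was called lower and 0 higher in early and 0 were called in late atretic follicles, where the count at an unadjusted p below 0.05 was also 0. The called gene was RABGGTA, a subunit of the enzyme that prenylates Rab proteins, which fell by 0.81 ± 0.23 in log2 units in early atretic follicles by the authors' deposited table (adjusted p = 0.0062). The medians of this list were -0.31 in early and -0.02 in late atretic follicles, against -0.85 and -0.99 for the 8 sterol enzymes. Those 8 were chosen with earlier results of these data known. Over all 19 mevalonate and sterol genes, which include the 8, the medians were -0.65 in early and -0.81 in late atretic follicles.

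**Figure D5:**
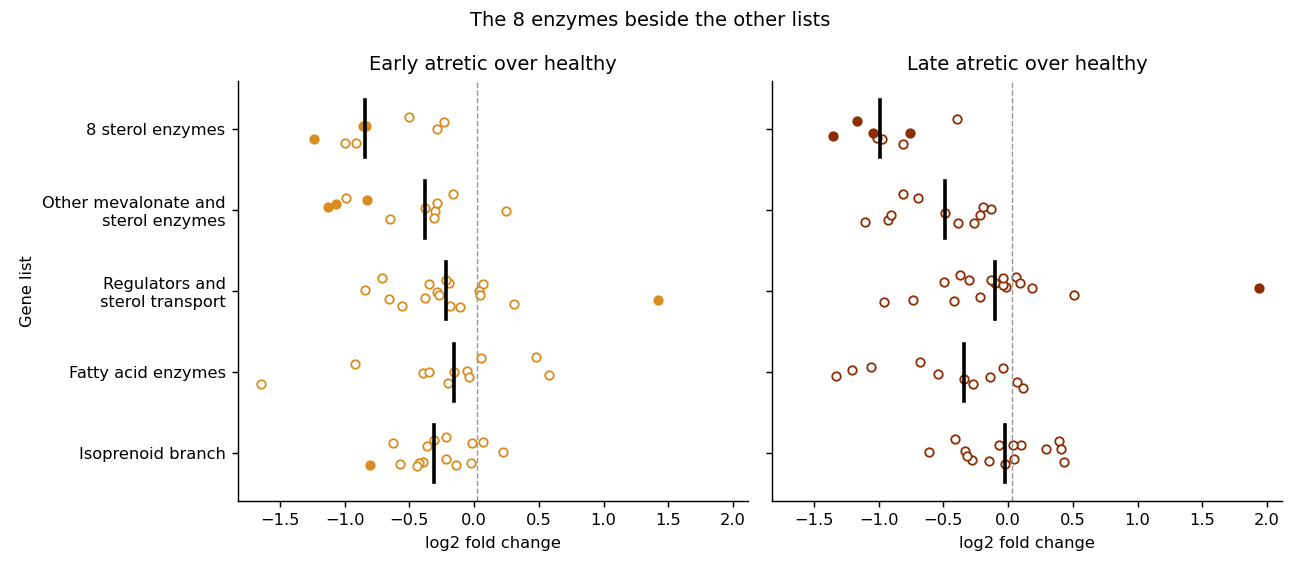
Log2 fold changes over healthy follicles of the genes in 5 lists, early atretic on the left and late atretic on the right; filled points passed an adjusted p of 0.05, black bars are list medians and the dashed line is the median of all tested genes. The medians of the 8 sterol enzymes, -0.85 and -0.99, lie below those of the other lists shown. The 8 were chosen with earlier results of these data known.

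Markers of macrophages and stroma were higher in the stages in which the sterol enzymes were lower. Among all tested genes, 4.35% were called lower and 8.59% higher in early, and 0.397% and 3.98% in late atretic follicles. At an unadjusted p below 0.05, 2.96% of tested genes were lower in late atretic follicles. Granulosa cell markers were present at every stage, and of 8 such markers 5 were called lower and 0 higher in early and 0 were called in late atretic against healthy follicles, where 1 was lower at an unadjusted p below 0.05. Their means summed to 158189 normalized counts in early atretic and 635871 in healthy follicles, and to 290331 in late atretic and 617436 in healthy follicles by the authors' deposited tables. Most of each sum came from INHA and INHBA, at 321220 and 270038 normalized counts in healthy follicles in the early comparison. INHBA was not called there by the authors' deposited table (adjusted p = 0.17). AMH stood at 83% of the healthy level in early and 86% in late atretic follicles, and FSHR at 45% and 73%. All 8 log2 changes were negative at both stages. INHA, INHBA, AMH and FSHR are named after their values were seen. Of 7 tested macrophage markers, 5 were called higher in early and 4 in late atretic follicles, with sums of 2797 normalized counts in early atretic and 349 in healthy follicles, and of 5368 in late atretic and 339 in healthy follicles. Of 7 fibroblast and stromal markers, 6 were called higher in early and 5 in late atretic follicles, with sums of 16117 normalized counts in early atretic and 3158 in healthy follicles, and of 21430 in late atretic and 3063 in healthy follicles. None of the markers found for these cell types was listed at 0 in any stage. The part of these cell types in the lower levels of the sterol enzymes, or in the higher level of NPC2, was not tested.

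The smaller marker lists gave the following counts. They stand beside 4.35% of all tested genes called lower and 8.59% higher in early, and 0.397% and 3.98% in late atretic follicles. At an unadjusted p below 0.05 these shares were 9.82% and 13.7% in early, and 2.96% and 9.2% in late atretic follicles. Of 6 endothelial markers, 2 were called higher in early and 1 in late atretic follicles, with sums of 2936 normalized counts in early atretic and 2006 in healthy follicles, and of 1707 in late atretic and 1949 in healthy follicles. At an unadjusted p below 0.05, 3 were higher and 0 lower in early, and 2 higher and 1 lower in late atretic follicles. The lower sum at the late stage came from VWF, with 1174 normalized counts in late atretic and 1722 in healthy follicles by the authors' deposited table, while the other 5 markers had positive log2 changes, such as ENG with 166 normalized counts in late atretic and 37.8 in healthy follicles (adjusted p = 0.0039). Of 4 neutrophil markers, 1 of 2 tested was called higher in early and 2 of 4 in late atretic follicles, with sums of 639 normalized counts in early atretic and 45.5 in healthy follicles, and of 320 in late atretic and 44.4 in healthy follicles. Most of the early sum came from S100A8, at 201 normalized counts in early atretic and 12.6 in healthy follicles, and S100A9, at 349 normalized counts in early atretic and 19.7 in healthy follicles, neither of which has a p-value in that comparison in the authors' deposited table. Of 5 genes listed as markers of T and B cells 1 was called higher at each stage, with sums of 681 normalized counts in early atretic and 401 in healthy follicles, and of 934 in late atretic and 391 in healthy follicles. The called gene was CORO1A, at 288 normalized counts in early atretic and 67.9 in healthy follicles. Most of each sum came from CORO1A and PTPRC, and PTPRC was not called. CD3E, CD3D and CD79A had low means and were not called at either stage, with CD3E at 20.3 normalized counts in early atretic and 16.4 in healthy follicles. The call and the sums of this list therefore do not rest on these 3 genes and were not read as more T or B cells. Of 3 theca markers found, 1 of 2 tested was called lower in early and 0 of 3 in late atretic follicles, where 1 was higher at an unadjusted p below 0.05. The theca markers summed to 2864 normalized counts in early atretic and 3856 in healthy follicles, and to 3048 in late atretic and 3753 in healthy follicles. These sums hide opposite values. ALPL averaged 1284 normalized counts in early atretic and 2951 in healthy follicles, and 1287 in late atretic and 2873 in healthy follicles, by the authors' deposited tables. STAR, which moves cholesterol into mitochondria for steroid synthesis, averaged 717 normalized counts in early atretic and 57.9 in healthy follicles, with no p-value, and 1286 in late atretic and 56.5 in healthy follicles, a log2 change of 4.51 ± 1.51, by the authors' deposited tables (adjusted p = 0.061). The markers named here were chosen after their values were seen. None of these markers was listed at 0, and their part in the results was not tested. No row was matched to CD163, CYP17A1 and CYP11A1, which were not analysed here.

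The gene whose pattern was closest to the median of the 8 enzymes was INSIG1. Likeness was measured as the distance, over the log2 changes of both atretic stages against healthy follicles, from the medians of the 8, among 8265 genes with a symbol, a p-value in both tables and a healthy mean at or above the median. It rests on 3 stages and 2 fold changes that share the healthy samples, so it is a description. INSIG1 lay at a distance of 0.031, SEMA4G at 0.037, ENTPD6 at 0.058, PPCDC at 0.061 and PLXNA1 at 0.067, all in log2 units. The errors of the fold changes were far larger, at 0.38 early and 0.42 late for INSIG1 and 0.35 and 0.53 for PLXNA1. The order of the 5 genes was therefore not resolved. INSIG1 was called at neither stage (adjusted p = 0.14 and 0.26 by the authors' test). Of these, SEMA4G, ENTPD6 and PPCDC were called lower in early atretic follicles by the authors' deposited table, with falls of 0.85 ± 0.27, 0.85 ± 0.26 and 0.85 ± 0.29 in log2 units, and none of the 5 was called in late atretic follicles. FDFT1 was the nearest of the 8 enzymes to their own median, at 0.051, and FDPS the farthest, at 0.86.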

How the data were processed

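The authors' deposited tables hold, per the file headers, a read count column for each of 2 stages, whose values are a signal: group means of normalized counts, scaled within each table, so values were compared within a table. The deposited log2 fold change is the first stage over the second, per the file headers, and equalled the log2 ratio of the means to within 0.01 at means above 50. P-values, raw and adjusted, were deposited by the authors, per the file headers. The submitters' processing notes list Bowtie 0.12.2 and builds mm8 and mm9 of the mouse, with no role. With the test, counter and annotation behind them not given in the sources used here, no coordinates are printed.

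Of 21253 rows per table, 452 repeats were dropped. Implied errors are the size of the log2 change over the two-sided z score of its p-value, which assumes a normal test. Depth per library was read only as the worth of 1 read, from the lowest values. Samples were grouped by their titles. All 8 enzymes were described, with every list gene past the threshold against healthy follicles (at most 6 per list), pathway genes chosen by name and the 5 closest in pattern. Some genes of the lists are not reported here. Enzymes and lists were chosen with earlier results of these data known. Other thresholds, filters and scalings were tried. Python 3.11.15, pandas 2.3.3, scipy 1.17.1 and matplotlib 3.10.9 were used, and the calculations were tested on simulated data.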

Additional observations from a re-analysis of the deposited data

How the results depend on the processing

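The calls depend on the threshold. At an adjusted p of 0.01, 0 of the 8 enzymes were lower in early atretic against healthy follicles (6 at an unadjusted p below 0.05) and 1, FDFT1, in late atretic against healthy follicles, where 2.0% and 0.121% of all tested genes were lower by that rule; asking for a log2 fold change of at least 1 as well left 1, SQLE, in early and 3 in late atretic follicles, against 1.81% and 0.271% of all tested genes. Adjusting over genes at or above the median mean gave 4 lower in early atretic follicles, IDI1 being added, and 4 in late. The share of all genes called by that rule was not computed, so these counts cannot be set beside it. Scaling both groups to the same total moved early fold changes up by 0.11 on the log2 scale, and the median of the 8 was then -0.73 at the early and -0.89 at the late stage. The scalings move every gene by 1 constant smaller than the fold changes of the 8 against healthy follicles, and a pseudocount of 1 is small beside their means, so neither could turn those directions. Rescaling to a median ratio of 0 turned LSS in late against early atretic follicles to -0.010, since its value lay within that shift of 0. Of the other single-enzyme values, 165 kept their direction and, where a call could be made, their side of the threshold, 9 lost a call and 1 gained one. Many of the 165 could not have come out otherwise, so the tally does not show that the calls hold. Recomputing the adjusted p from the deposited p-values kept all 24 values on their side, and an uncalled enzyme cannot lose a call. Only the 3 early and 4 late calls against healthy follicles could be lost under stricter rules. Of the losses, 6 came at an adjusted p of 0.01 and 3 with the log2 fold change minimum. Leaving out samples was not run, as the tables hold group means. No paired analysis was possible because the columns are group means and carry no replicate numbers. The unknown total depth and the assumed normal test limit the implied errors.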

Other observations

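Paralogs of the enzymes and genes of ketone metabolism were read beside them; the genes named in this part were chosen after their values were seen. ACAT1, the mitochondrial thiolase, averaged 4881 normalized counts in early atretic and 6476 in healthy follicles, and 5835 in late atretic and 6301 in healthy follicles, with log2 changes of -0.41 ± 0.26 and -0.11 ± 0.40 by the authors' deposited tables, neither of which passed. OXCT1, which uses ketone bodies, had log2 changes of 0.32 ± 0.24 at the early and 0.42 ± 0.25 at the late stage by the authors' deposited tables, and did not pass. Of 4 genes of this list that were tested, 0 passed in either comparison with healthy follicles, and the counts at an unadjusted p below 0.05 were also 0. Among all tested genes, 4.35% were called lower and 8.59% higher in early, and 0.397% and 3.98% in late atretic follicles.

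SCD, the fatty acid desaturase, had a wide error and did not pass: it averaged 6051 normalized counts in early atretic and 18902 in healthy follicles, with a log2 change of -1.64 ± 0.81, and 7283 in late atretic and 18327 in healthy follicles, with -1.33 ± 0.64, by the authors' deposited tables (adjusted p = 0.19 and 0.34). ACLY, which makes cytosolic acetyl-CoA from citrate, averaged 4866 normalized counts in early atretic and 3490 in healthy follicles, with a log2 change of 0.48 ± 0.24 and no call by the authors' deposited table (adjusted p = 0.20).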
